A study of Mus musculus with 4 samples.

Results

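The phagocyte NADPH oxidase was represented by 5 genes of the 16230 in the deposited table, taken by symbol: Cybb, Cyba, Ncf1, Ncf4 and Rac2. Transcript levels were measured in CD4 T cells sorted from spleens of Rag-/- mice 8 weeks after transfer of naive CD4 T cells, when the mice had colitis. The donor cells were either CD4creERafl/fl, in which Cre driven from Cd4 acts on loxP-flanked Esr1, the gene of estrogen receptor α (2 libraries), or ERafl/fl, with the same alleles and no Cre (control, 2 libraries). All hosts carried the Rag-/- deletion, which leaves a spleen without T and B cells of its own but with myeloid and NK cells. The labels give neither sex nor age, nor whether separate mice stand behind the libraries of a group, so the p-values describe the spread among 4 libraries, and part of that spread may be technical.

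The oxidase is the enzyme with which neutrophils and macrophages make superoxide. Its membrane part, flavocytochrome b558, pairs gp91phox (Cybb), which carries the electron path, with p22phox (Cyba), which stabilises it and docks the cytosolic subunits. On activation p47phox (Ncf1), the phosphorylated organizer, moves with p40phox (Ncf4), which binds a phosphoinositide of the phagosome, to the membrane. There they meet the small GTPase Rac2 of blood cells. Inherited loss of the main subunits causes chronic granulomatous disease in humans. Cybb, Ncf1 and Ncf4 are mostly genes of myeloid and B cells, Cyba is expressed widely, and Rac2 is used throughout the blood lineages, T cells included.

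The contents of the libraries bear on every value below. The 20 measured genes listed as restricted to T cells summed to 451 and 407 FPKM in both libraries labelled ERα-deficient, against 1901 and 1561 FPKM in controls 1 and 2. FPKM are fragments scaled to transcript length and to the mapped fragments of a library. None of the 20 was at 0 in any library. Whether other cells, such as NK cells, made part of these values was not tested. The 22 macrophage and monocyte markers summed to 3366 and 3870 FPKM in both libraries labelled ERα-deficient, against 225 and 757 FPKM in controls, where 4 were listed at 0 in control 1 and none in control 2. The 16 neutrophil markers summed to 5913 and 7879 FPKM, against 2127 and 4454 FPKM. Of the libraries labelled ERα-deficient, Esr1 was at a listed 0 in library 1 and at 1.96 FPKM in library 2, against 0.23 FPKM in control 1 and a listed 0 in control 2. That level cannot check the labels, since the value covers the whole transcript and not the deleted exons alone. Estimated depth was 501000 and 557000 fragments in these libraries, against 697000 and 664000 in controls, which is low. In such bulk samples fewer cells of a type and less RNA per cell cannot be told apart.

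Promoter sequence was at hand in RefSeq (GRCm38.p6) for Cybb, Cyba and Ncf1. The windows of the 2 flavocytochrome genes are printed because these genes, whose proteins form 1 complex, had the third largest range of ratio between libraries among the 10 subunit pairs. Each window runs from 250 bases before to 50 after an annotated start. For Cybb this start lies inside the gene interval given below, which reaches base 9487766, upstream on the minus strand. Capitals mark matches on either strand to GAGGAA, a core bound by the myeloid factor PU.1.
Cybb, chrX:9469275-9469574, minus strand: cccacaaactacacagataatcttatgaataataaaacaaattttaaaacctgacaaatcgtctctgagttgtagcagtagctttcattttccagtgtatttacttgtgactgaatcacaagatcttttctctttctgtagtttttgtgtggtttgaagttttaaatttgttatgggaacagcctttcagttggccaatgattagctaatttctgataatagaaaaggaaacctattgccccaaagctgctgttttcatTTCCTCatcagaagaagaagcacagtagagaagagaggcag
Cyba, chr8:122432891-122433190, minus strand: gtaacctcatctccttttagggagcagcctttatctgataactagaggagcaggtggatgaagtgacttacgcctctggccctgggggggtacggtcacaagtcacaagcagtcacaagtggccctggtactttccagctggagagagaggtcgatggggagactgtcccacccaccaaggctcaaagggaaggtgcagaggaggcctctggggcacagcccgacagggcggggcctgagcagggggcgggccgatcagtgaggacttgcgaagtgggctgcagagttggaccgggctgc
The Cybb window held 1 match, on the strand opposite to the gene, at bases 260 to 265 of the 300, while the Cyba and Ncf1 windows held 0. Of 32544 promoter windows of this length, 28.1% held at least 1 match, so a match is common. The Cybb window also held 1 CCAAT, found on either strand in 37.4% of windows, and none of the 3 windows held the AP-1 letters TGACTCA, found in 5.19%. A match is a description of letters and not a binding site.

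Among the subunits, the catalytic one was the most different between groups. Cybb (NCBI gene 13058; GRCm38 chromosome X, 9435252 to 9487766) had 66.6 and 68.4 FPKM in both libraries labelled ERα-deficient, against 5.98 FPKM in control 1 and 22.9 FPKM in control 2. Both libraries labelled ERα-deficient lay above both controls and close to each other, while the controls themselves differed by 1.78 on the log2(FPKM + 1) scale. These values rest on an estimated 158 and 181 fragments, against 19.8 and 72.3. Counting error alone gives 95% intervals of 56.5 to 77.6 and 58.8 to 79.1 FPKM, against 3.69 to 9.33 and 17.8 to 28.7 FPKM (exact Poisson), so the interval of control 1 did not reach that of control 2. The log2 fold change was 2.41 ± 0.61 (SE), with a 95% interval of 0.89 to 3.93, and did not pass in limma (adjusted p = 0.18). It was 1.52 without control 1 and 3.29 without control 2. With voom weights on the estimated fragments, chosen after the data were seen, Cybb was called (log2 fold change 2.51, adjusted p = 0.0116 in limma). In that fit 2.37% of 6316 genes were called higher and 0.966% lower.

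Cyba, the partner of gp91phox, was the most abundant subunit per length on average and overlapped between groups. Cyba (NCBI gene 13057; chromosome 8, 122424771 to 122432940) had 117 and 187 FPKM in both libraries labelled ERα-deficient, against 98.95 and 142 FPKM in controls. The groups interleaved, with the second library of each group above the first. Its mean was 152 ± 49.3 FPKM, against 121 ± 30.6 FPKM (SD, n = 2 each). The log2 fold change was 0.31 ± 0.36 (SE), with a 95% interval of -0.58 to 1.20 and an adjusted p of 0.703 in limma. The interval thus includes 0. Cyba has short transcripts of 638 and 744 bases, so its high FPKM rest on 37.3 to 43.5 and 66.3 to 77.3 estimated fragments, against 44.0 to 51.3 and 60.3 to 70.3, depending on the transcript.

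The cytosolic subunits did not move alike. Ncf1, the organizer p47phox (NCBI gene 17969; chromosome 5, 134220053 to 134229628), had 44.3 and 49.2 FPKM in both libraries labelled ERα-deficient, against 20.7 and 33.1 FPKM in controls. The groups did not overlap, and control 2 was again nearer to the libraries labelled ERα-deficient than control 1. Its log2 fold change was 0.81 ± 0.36 (SE; 95% interval -0.08 to 1.70; adjusted p = 0.347 in limma). Annotated exons of Ncf1 share 408 of 3663 bases with Gtf2ird2 on the opposite strand, and whether the counting used strand is not stated in the sources at hand, so the value is uncertain.

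Ncf4, which encodes p40phox (NCBI gene 17972; chromosome 15, 78244164 to 78262582), had 19.3 and 22.2 FPKM in both libraries labelled ERα-deficient, against 20.8 and 25.9 FPKM in controls. The values of the groups interleaved, and all 4 lay within a narrow band. The log2 fold change was -0.16 ± 0.33 (SE), with a 95% interval of -0.99 to 0.68 and an adjusted p of 0.848 in limma. These values rest on 14.1 and 18.1 estimated fragments, against 21.2 and 25.2. A log2 fold change as large as that of Cybb lies outside the interval of Ncf4, while changes between its bounds are not excluded. The interval is not a limit of detection, since Cybb itself did not pass in limma. Ncf4 was the subunit with the smallest difference in size.

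Rac2 was lower without overlap. The gene (NCBI gene 19354; chromosome 15, 78559169 to 78572783) had 84.7 and 57.4 FPKM in both libraries labelled ERα-deficient, against 144 and 127 FPKM in controls. Both controls lay above both libraries labelled ERα-deficient, on an estimated 129 and 97.1 fragments against 305 and 256. The log2 fold change was -0.95 ± 0.31 (SE; 95% interval -1.72 to -0.17; adjusted p = 0.248 in limma). Unlike Cybb, Rac2 was lower in control 2 than in control 1, by a log2 difference of -0.18. Stretches of its transcript, of up to 124 bases, match transcripts of 9 other genes at 95% identity or more.

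Against the background of all 12896 genes tested, the 5 subunits split. Of the 5, 0 were called in limma (1 of the 3 tested, Cybb, with voom weights), where 0.0155% of tested genes were called higher and 0.0388% lower. At an unadjusted p under 0.05 in limma, Cybb was higher (9.1% of tested genes) and Rac2 lower (6.8%). Groups did not overlap for 2 subunits in the higher direction, where 23.2% of tested genes did the same, and for 1 in the lower direction, where 25.7% did. Read against those percentages, counts of 2 and 1 among 5 genes are no result about the family. The median log2 fold change was 0.31, beside -0.07 over all tested genes, with a span from -0.95 for Rac2 to 2.41 for Cybb. When libraries were scaled to the genes listed as restricted to T cells, the median of all tested genes moved to 1.89. On this scale Ncf4 (2.05) and Rac2 (1.35) turned to the higher direction. Relative to that median the 5 values were 2.65 for Cybb, 1.15 for Ncf1, 0.72 for Cyba, 0.16 for Ncf4 and -0.54 for Rac2. On that scale all 5 passed in limma (adjusted p 0.00625 to 0.0255), as did 66.0% of tested genes in the higher direction.

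**Figure D1:**
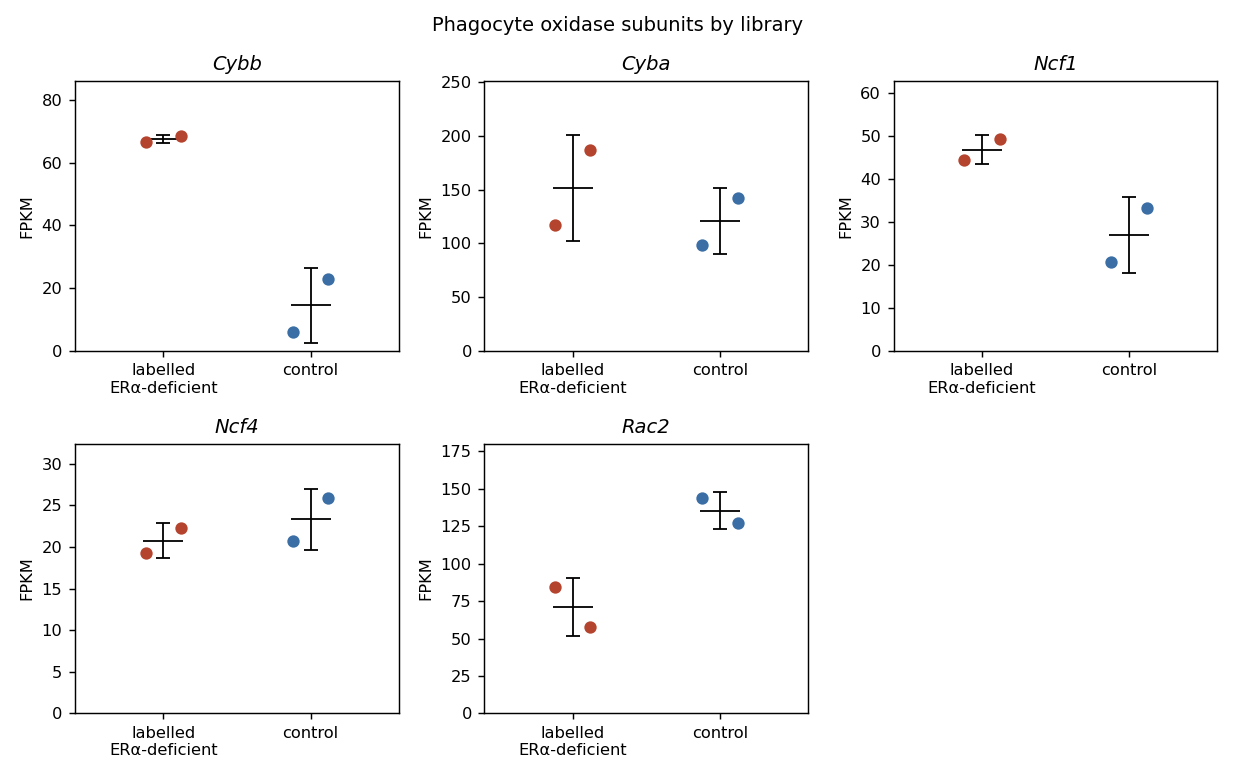
FPKM of each subunit (vertical axis, from 0) in the libraries labelled ERα-deficient (red) and controls (blue). Each point is a library and the bars are mean ± SD (n = 2 each). Cybb is separated widely, Cyba and Ncf4 overlap, and both Rac2 values of the libraries labelled ERα-deficient lie below both controls, a direction that turns on scaling to T cell genes.

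Since FPKM are per length, levels of the subunits can be ranked within a library. In the libraries labelled ERα-deficient Cyba was first and Ncf4 last of the 5, with Rac2, Cybb and Ncf1 in that order in the first library and Cybb, Rac2 and Ncf1 in the second. In controls Cyba and Rac2 led and Cybb had the lowest value. In control 2 its counting interval of 17.8 to 28.7 FPKM overlapped that of Ncf4, 16.6 to 37.9 FPKM (exact Poisson). Ncf1 and Ncf4 were close in control 1, at 20.7 and 20.8 FPKM. The sum over the 5 varied little, at 332 and 384 FPKM in both libraries labelled ERα-deficient and 290 and 351 FPKM in controls. Its make-up varied more. Cybb made up 20.1% and 17.8% of that sum, against 2.06% and 6.52%. Rac2 made up 25.5% and 15.0%, against 49.6% and 36.2%. Cyba made up 35.2% and 48.6%, against 34.1% and 40.5%, and Ncf4 stayed between 5.80% and 7.38% in all 4 libraries.

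Ratios between subunits varied from library to library to very different extents. The ratio of 2 genes within a library does not depend on how the library is scaled, apart from the pseudocount of 1. Over the 10 pairs the range of the log2 ratio between libraries ran from 0.81 to 4.63, with a median of 2.22. The groups did not overlap for 10 of 10 pairs. Over the log2 ratios of the 5 subunits to every other tested gene, the groups did not overlap in 61.1% of 64475 ratios, and the median range was 1.87. The share of partners was 87.9% for Cybb, 64.5% for Ncf1, 61.9% for Rac2, 46.1% for Ncf4 and 45.1% for Cyba. Non-overlap of a ratio was thus frequent for these genes with any partner. With 2 libraries against 2, the two-sided exact permutation p was 0.333 for each pair, the smallest that it can give, and 0.333 after adjustment over the 10 pairs. The pairs are not independent, since each gene enters 4 of them.

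The pair that forms the flavocytochrome had very unequal transcript ratios. Cybb over Cyba on the linear FPKM scale was 0.57 and 0.367 in the libraries labelled ERα-deficient, against 0.0604 in control 1 and 0.161 in control 2. The mean log2 ratio was -1.12, against -3.21, a difference of 2.09. All 4 values were below 1, so Cybb transcripts were fewer than Cyba transcripts per length in each library. Of tested genes, 23.6% had a range of ratio to Cybb at most as wide as that of Cyba. From the side of Cyba, 89.9% had a range of ratio to it at most as wide as that of Cybb. The median range of ratio to other tested genes was 3.69 for Cybb and 1.54 for Cyba.

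Within the cytosolic set, ratios of Ncf1 to Ncf4 were tighter. Ncf1 over Ncf4 was 2.30 and 2.21 in the libraries labelled ERα-deficient, against 0.996 and 1.28 in controls. The log2 ratios differed by 0.97 between groups, with a pooled SD of 0.18 within them and a range of 1.17. Of tested genes, 43.4% had a range of ratio to Ncf4 at most as wide as that of Ncf1. From the side of Ncf1 the share was 19.6%. Cyba over Ncf4 (range 0.81) and Cyba over Ncf1 (range 0.83) were the steadiest pairs. Ncf4 had counting intervals as wide as 10.4 to 32.1 FPKM in the first library labelled ERα-deficient (exact Poisson), and whether counting error covers the ranges of these pairs was not tested. Cyba over Ncf4 was 6.06 and 8.39, against 4.77 and 5.49, and Cyba over Ncf1 was 2.63 and 3.80, against 4.79 and 4.29. The first was thus higher and the second lower in the libraries labelled ERα-deficient. In comparison, 11.4% of tested genes had a ratio to Cyba with as small a range as that of Ncf4, and 11.98% as small as that of Ncf1. From the other side, 23.1% had a ratio to Ncf4, and 7.55% a ratio to Ncf1, with as small a range as that of Cyba.

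The widest of the 10 pairs joined Cybb and Rac2. Cybb over Rac2 was 0.786 and 1.19 in the libraries labelled ERα-deficient, against 0.0415 and 0.18 in controls, a range of 4.63 on the log2 scale. Ncf1 over Rac2 was 0.523 and 0.856, against 0.143 and 0.261. Cyba over Rac2 was 1.38 and 3.25, against 0.687 and 1.12. Each subunit was more abundant relative to Rac2 in both libraries labelled ERα-deficient than in both controls. Of tested genes, 96.1% had a range of ratio to Rac2 at most as wide as that of Cybb. From the side of Cybb, 82.1% had a range of ratio to it at most as wide as that of Rac2.

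**Figure D2:**
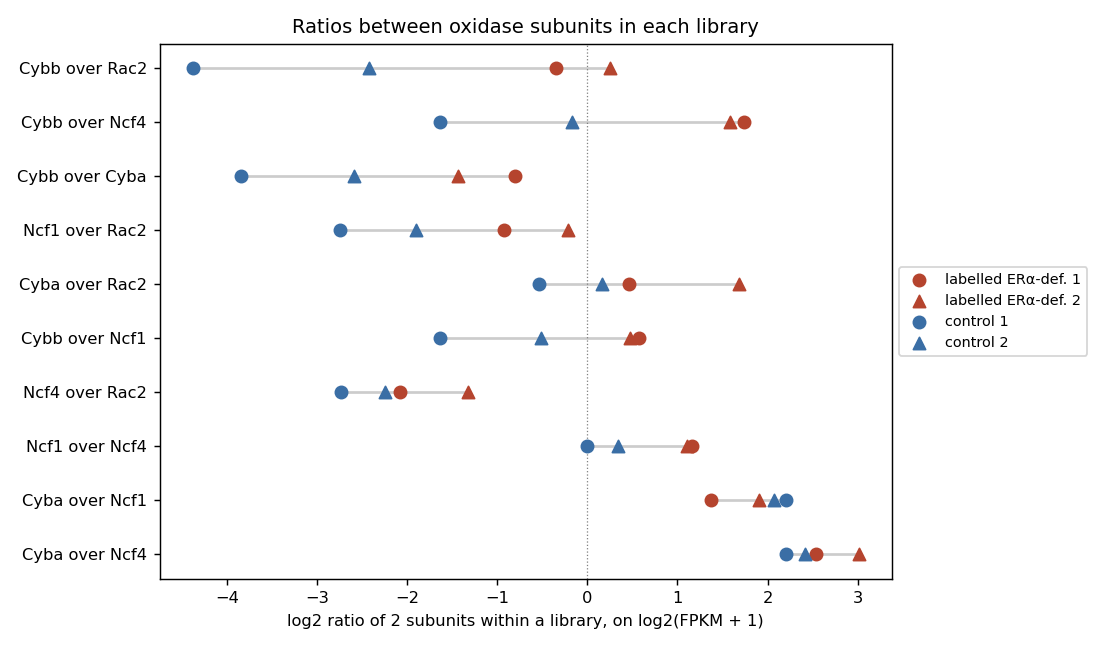
Log2 ratio of 2 subunits within a library on log2(FPKM + 1) (horizontal axis) for the 10 pairs, ordered from the widest range at the top. Points are libraries labelled ERα-deficient (red) and controls (blue), with circles for library 1 and triangles for library 2. Red and blue do not interleave in any of the 10 pairs, and the range falls from 4.63 to 0.81.

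Set against the summed markers of cell types, the subunits varied to different extents. How many other genes vary as little against these sums was not tested. Cybb was 1.98% and 1.77% of the summed macrophage and monocyte markers in the libraries labelled ERα-deficient, against 2.65% and 3.02% in controls. Rac2 was 2.52% and 1.48% of the same sum, against 63.9% and 16.8%, and Cyba 3.47% and 4.82%, against 43.9% and 18.8%. Ncf1 lay between, at 1.32% and 1.27%, against 9.17% and 4.38%, and Ncf4 was 0.572% and 0.575%, against 9.20% and 3.42%. Cybb thus varied least against this sum, while Rac2 varied most. Against the genes listed as restricted to T cells the order was the opposite. The macrophage sum was higher and the T cell sum lower in the libraries labelled ERα-deficient, so these orders follow from the differences given above. Rac2 was 18.8% and 14.1% of the T cell sum, against 7.58% and 8.13%, while Cybb was 14.8% and 16.8%, against 0.315% and 1.47%. Both shares were thus higher without overlap, so Rac2 was lower by a smaller factor than this sum. The sum weighs abundant genes most. The log2 fold change of Rac2 (-0.95) lay within the span of the 20 single genes (-3.47 to -0.78). Whether Rac2 moved with the T cell genes was not tested. Ncf1 as a share of the neutrophil sum was 0.75% and 0.624%, against 0.972% and 0.744%. The part of these cell types in the differences between groups was not tested.

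**Figure D3:**
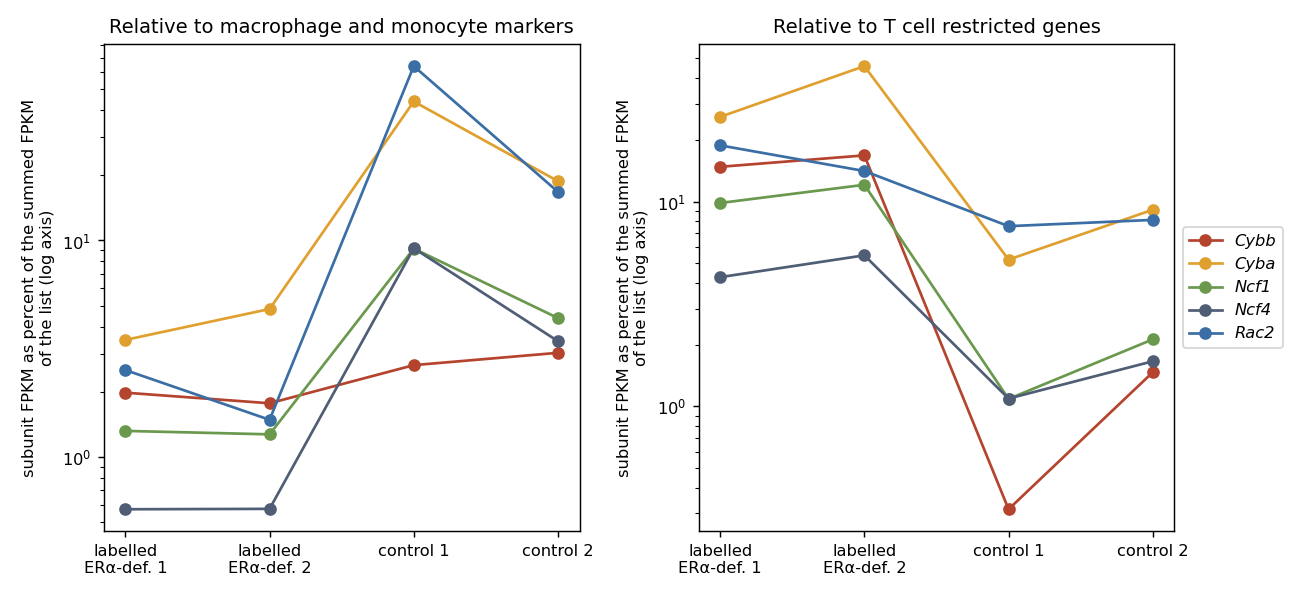
FPKM of each subunit in each library as a percent of the summed FPKM of 2 lists, on log axes. The lists are macrophage and monocyte markers (left) and genes listed as restricted to T cells (right). Lines only join the values of a gene and the libraries have no order. Against macrophage markers Cybb stays between 1.77% and 3.02% while Rac2 spans 1.48% to 63.9%, and against T cell genes Rac2 spans 7.58% to 18.8% while Cybb spans 0.315% to 16.8%.

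The genes whose profile over the 4 libraries was most like that of a subunit differed from subunit to subunit. Likeness was the root mean square difference between log2(FPKM + 1) profiles, each centred on its own mean, over 4915 named genes with a mean of at least 10 FPKM. Among the 3 nearest to Cybb were the tetraspanin gene Cd9 (0.11) and Cd86, a costimulatory ligand of antigen-presenting cells (0.11). For Ncf1 the nearest were Coro1b, an actin regulator (0.03), Nnat (0.04) and Leprot (0.05). For Cyba they were Phykpl (0.05), Lta4h, which makes leukotriene B4 (0.05), and Tyr (0.07). For Ncf4 they were Cnbp (0.02), Nrbf2 (0.04) and Hist1h1c (0.04), and for Rac2 Kdm1a (0.04), Trerf1 (0.07) and Stat5b (0.07). No subunit was among the 3 nearest of another. Within 0.1 lay 9 genes for Rac2, 13 for Ncf1, 28 for Cyba and 77 for Ncf4, so that likeness to the flat profile of Ncf4 is common. Over the pairs of subunits the smallest difference was 0.30, between Cyba and Ncf4, and the largest 1.83, between Cybb and Rac2.

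The 7 other oxidase genes tested and reported here overlapped between groups. Of 14 genes listed, 8 were in the table and 7 tested, and 3 were higher and 4 lower on average, with a median log2 fold change of -0.11. Of the 7, 0 were called in either direction in limma, 0 had an unadjusted p under 0.05, and with voom weights 0 of 5 were called. Over all tested genes, limma called 0.0155% higher and 0.0388% lower, and 9.1% and 6.8% had an unadjusted p under 0.05. Groups did not overlap for 23.2% in the higher and 25.7% in the lower direction. With voom weights 2.37% were called higher and 0.966% lower. Read against those percentages, counts of 0 among 7 genes are no result about them. Rac1, the widely expressed relative of Rac2, had 41.0 and 65.1 FPKM, against 41.4 and 61.8 FPKM (log2 fold change 0.03, 95% interval -0.92 to 0.98). Cybc1, listed under its older name BC017643 and needed in humans for gp91phox to mature, had 18.2 and 13.2 FPKM, against 14.2 and 20.9 FPKM. Nox1, the catalytic subunit of the colon epithelium, had 38.1 and 34.2 FPKM, against 36.3 and 56.2 FPKM, a level that is not typical of T cells in either group. Rac3 had 1.88 and 6.77 FPKM, against 1.35 and 2.84 FPKM. Noxo1 had 2.67 and 7.20 FPKM, against 14.1 and 3.36 FPKM, so both overlapped. Rap1b, a small GTPase related to Rap1a, which is found with the flavocytochrome in human neutrophils, had 120 and 155 FPKM, against 117 and 131 FPKM.

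Genes that activate the oxidase were measured beside the subunits. All 32 of the list were tested, with 0 called, 25 higher and 7 lower on average, 18 higher and 6 lower without overlap, and a median of 0.58. Over all tested genes 23.2% were higher and 25.7% lower without overlap, so the 6 lower are a smaller share than that. At an unadjusted p under 0.05 in limma 12 were higher and 2 lower (9.1% and 6.8% of all tested genes). With voom weights Plcg2 and Fcgr3 rose, of 14 tested, where 2.37% of all genes in that fit were called higher. Prkcd, a kinase of p47phox, had 46.7 and 58.0 FPKM in both libraries labelled ERα-deficient, against 9.73 and 19.9 FPKM (log2 fold change 1.83, adjusted p = 0.165 in limma). Plcg2 had 31.2 and 21.8, against 2.31 and 5.53 FPKM. The receptors Clec7a (35.4 and 72.8, against 2.68 and 9.23 FPKM) and Fpr1 (7.57 and 12.2, against 1.09 and 1.14 FPKM), which sense fungal glucan and formyl peptides, lay higher without overlap too. Hvcn1, the proton channel that balances the charge moved by the oxidase, had 68.3 and 66.0 FPKM, against 49.0 and 67.8 FPKM, and overlapped. Its log2 fold change was 0.22, with a 95% interval of -0.55 to 0.98. Most of these genes are also expressed by myeloid cells, whose markers moved with them, and 2 of the 32 are in the macrophage list. The part of those cells was not tested.

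Transcription factors known to act on the subunit genes had a median of 2.35 over 7 tested of 8 listed, with 0 called, 5 higher without overlap and 1 lower (23.2% and 25.7% of all tested genes), and 5 higher at an unadjusted p under 0.05 in limma (9.1%). Spi1, which encodes PU.1, had 69.7 and 58.9 FPKM, against 5.89 and 16.5 FPKM (log2 fold change 2.57, adjusted p = 0.144 in limma). Spi1 was the 1 factor tested with voom weights, and it rose there, where 2.37% of all genes in that fit were called higher. That fit thus says nothing of the other factors. The controls of Spi1 differed in the same direction as those of Cybb, by 1.34. Irf8 had 28.5 and 35.6 FPKM, against 1.5 and 15.7 FPKM. Cebpb (75.5 and 79.7, against 11.4 and 15.97 FPKM), Cebpa (12.1 and 10.2, against 1.08 and 1.14 FPKM) and Cebpe (11.4 and 8.80, against 1.17 and 3.69 FPKM) also lay higher without overlap, and none passed in limma (adjusted p 0.1 to 0.226).

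Genes that handle the products of the oxidase differed less than Cybb on the whole. Of 22 tested of 24 listed, 0 were called, 8 were higher and 3 lower without overlap, and the median was 0.47, beside 23.2% higher and 25.7% lower without overlap over all tested genes. At an unadjusted p under 0.05 in limma 3 were higher and 0 lower (9.1% and 6.8% of all tested genes). With voom weights Hmox1 and Gpx1 rose, of 13 tested, where 2.37% of all genes in that fit were called higher. Hmox1, the heme oxygenase, had the widest difference (399 and 453 FPKM, against 7.94 and 41.7 FPKM) and is also in the macrophage list. Cat, the catalase, had 39.0 and 35.0 FPKM, against 12.3 and 17.1 FPKM, and Gpx1, which reduces hydrogen peroxide, 133 and 173 FPKM, against 16.4 and 76.1 FPKM. Keap1, which restrains the antioxidant response, had 1.33 and 7.36 FPKM, against 9.05 and 12.3 FPKM. Partners in killing gave 4 tested of 7 listed, with a median of 0.97 and 0 called. Of these, 2 had higher values at an unadjusted p under 0.05, Slc11a1 and Lyz2, and both rose with voom weights. Slc11a1, the metal transporter of phagosomes, had 50.6 and 54.4 FPKM, against 11.9 and 14.2 FPKM. Lyz2, lysozyme, which is also in the macrophage list, had 548 and 1304 FPKM, against 50.7 and 162 FPKM. Irgm1 had 27.1 and 24.4 FPKM, against 29.2 and 52.4 FPKM, and Gbp2 had 28.2 and 20.2 FPKM, against 15.1 and 37.8 FPKM.

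**Figure D4:**
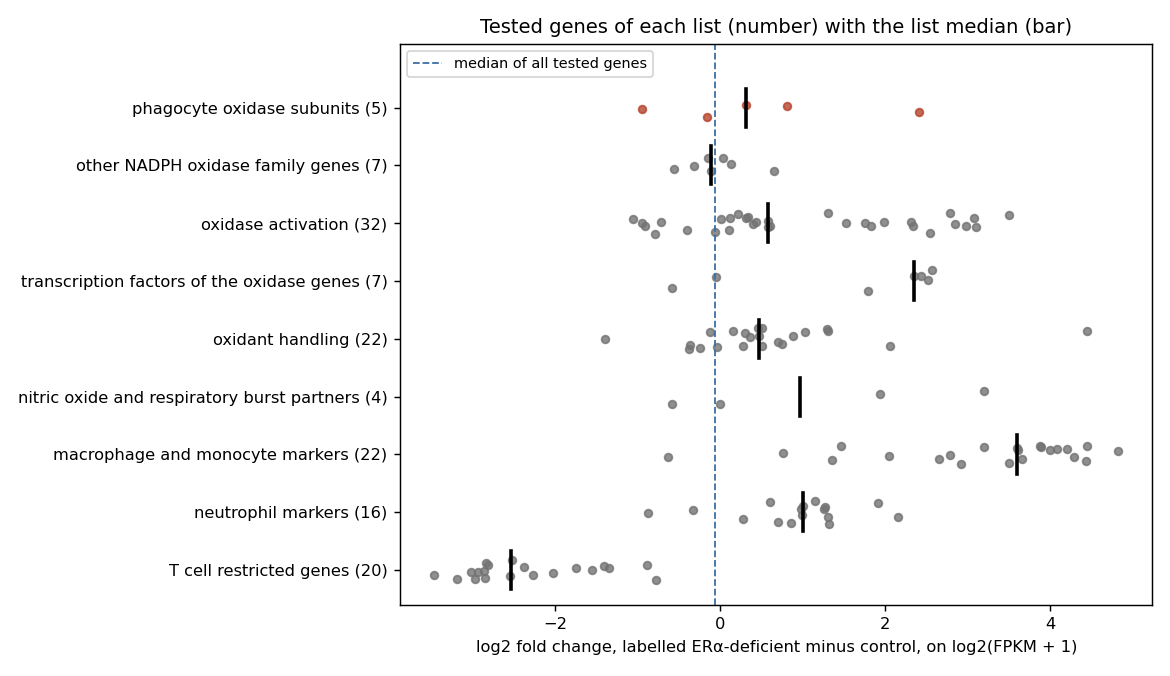
Log2 fold change of each tested gene, libraries labelled ERα-deficient minus controls on log2(FPKM + 1) (horizontal axis), by list, with the number tested. Bars are list medians and the dashed line is the median of all tested genes (-0.07). The 5 subunits (red) span -0.95 to 2.41 around a median of 0.31, between the medians of macrophage markers (3.60) and T cell genes (-2.54). Scaling to T cell genes turns Ncf4 and Rac2 to the higher direction.

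The marker lists gave the frame for this span. Macrophage and monocyte markers had a median of 3.60 with 20 of 22 higher without overlap (all but Ly6c2 and Ccr2, named after their values were seen), neutrophil markers 0.999 with 8 of 16, dendritic cell markers 2.85 with 9 of 14, and NK cell markers 1.82 with 8 of 12. Erythroid markers had a median of 1.68 with 2 of 13 higher without overlap, and B cell markers 1.06 with 2 of 4. Lower without overlap were 2 NK cell, 1 dendritic cell and 1 B cell marker. Over all tested genes 23.2% were higher and 25.7% lower without overlap, so the share of erythroid markers was below that of all genes. T cell genes had a median of -2.54 with 20 of 20 lower without overlap. In these lists limma called 0 genes in either direction. At an unadjusted p under 0.05 in limma, 20 macrophage, 6 neutrophil, 7 dendritic cell and 7 NK cell markers were higher. At that threshold 1 NK cell marker and 18 T cell genes were lower, with 0 of the erythroid and B cell markers in either direction. Over all tested genes, 9.1% were higher and 6.8% lower there. With voom weights 12 of 18 macrophage and 4 of 8 dendritic cell markers tested rose and 7 of 11 T cell genes fell. In the same fit 0 of 8 neutrophil, 0 of 5 NK cell and 0 of 5 erythroid markers were called, and 0 B cell markers were tested. Of all 6316 genes in that fit, 2.37% were called higher and 0.966% lower. The most abundant markers were Lyz2 and Hmox1, given above, S100a9 (2505 and 3662 FPKM, against 915 and 2032 FPKM) and S100a8 (2176 and 2525, against 607 and 1448 FPKM) of neutrophils, and Cd247 (102 and 75.9, against 213 and 237 FPKM) and Cd3d (124 and 70.9, against 177 and 146 FPKM) of T cells. Cd74 (2406 and 2251, against 37.4 and 636 FPKM) and H2-Ab1 (877 and 905, against 9.75 and 253 FPKM) led among antigen-presenting cell genes. Of B cell genes, Cd22 had 199 and 76.3 FPKM, against 51.7 and 65.9 FPKM, and Fcer2a had 1.27 and 10.96 FPKM, against 17.5 and 16.6 FPKM. Of NK cell genes that T cells also make, Gzma had 32.7 and 94.3 FPKM, against a listed 0 and 12.3 FPKM, and Nkg7 had 5.05 and 24.97 FPKM, against 49.0 and 47.6 FPKM. Of red cell genes, Hbb-bs had 2744 and 2227 FPKM, against 83.3 FPKM in control 1 and 3580 FPKM in control 2, and Hba-a1 had 2558 and 2283 FPKM, against 97.98 and 3354 FPKM.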

How the data were processed

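Values are FPKM that the authors computed and deposited as 1 table, 1 column per library. The submitters' processing notes name HISAT, Bowtie2, RSEM and build mm10. Their settings, and whether strand was used, are not given in the sources used here. RSEM assigns shared fragments by estimate, so a value of exactly 0 is written as listed at 0. NCBI gene identifiers matched GRCm38.p6, which carries mm10 coordinates, for 16183 of 16230 genes. Symbols turned into dates (23) were restored.

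The 12896 genes that averaged at least 1 FPKM entered a fit on log2(FPKM + 1) in limma 3.58.1 (R 4.3.3), group as the only term, empirical Bayes trend, two-sided, Benjamini-Hochberg adjustment over all tested genes, threshold 0.05. This scale understates changes of low genes. Exact permutation tests of 2 against 2 cannot go below p = 0.333. Fragments per library were estimated from the step on which FPKM times transcript length falls (10331 genes with 1 transcript over 800 bases, lengths from GENCODE M21), with 74.5% to 76.4% of low values within 0.2 of a whole fragment. 1 fragment on 2000 bases is worth 0.718 to 0.999 FPKM, and 3 fragments, the limit a count of 0 allows, 2.15 to 3.00 FPKM, for counting error only. Transcripts were compared with blastn (at least 75 bases at 95% identity).

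The subunits and lists were chosen with earlier results of these data known. Named were the 5 subunits, Cybc1, Rac1, Spi1, Irf8 and Hvcn1, from each pathway list 4 genes by smallest p, from each marker list the 2 most abundant, and the 3 nearest profiles of each subunit. Some genes that this rule or the lists held are not reported here. Alternatives tried were the pseudocount, the filter, 3 scalings, no trend, a replicate block, each library left out, and voom weights, the last added after seeing the data.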

Additional observations from a re-analysis of the deposited data

How the results depend on the processing

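Over all tested genes limma called 2 higher and 5 lower. It called 0 and 0 with the replicate block, without a trend, without a filter or with 0.1 as pseudocount, where 1031 to 1251 were higher and 771 to 939 lower at an unadjusted p under 0.05. With a mean FPKM of at least 5 it called 0 and 4, scaled to T cell genes 8514 and 43, and with voom weights 150 and 61. Leaving out each library in turn gave 0 calls in both directions, with 691 to 1024 higher and 428 to 1225 lower at an unadjusted p under 0.05, against 1173 and 877 with all 4. Quantile and median-ratio scaling gave 2 and 5. Among the subunits, scaling to T cell genes gave 4.54 for Cybb, 2.61 for Cyba and 3.05 for Ncf1, now past the threshold, and turned Ncf4 to 2.05 and Rac2 to 1.35, relative to a median of 1.89. By construction it multiplies all genes of a library by 1 factor. With voom weights Cybb was 2.51 and past the threshold, the cause of which was not tested, and Ncf4 and Rac2 were not called. Without 1 library, log2 fold changes ran from 1.52 to 3.29 for Cybb, -0.023 to 0.65 for Cyba, which turned without the second library labelled ERα-deficient, 0.48 to 1.14 for Ncf1, -0.31 to -0.0034 for Ncf4 and -1.22 to -0.67 for Rac2. The samples share only a number: deviations of same-numbered libraries had a correlation of -0.0016 across genes, and the replicate block left the subunits uncalled. Quantile scaling and pseudocounts of 0.1 or none left 10 of 10 subunit ratios without overlap. Leaving out a library cannot create an overlap, so its count of 10 says nothing of stability, and it moved differences in log2 ratio, as for Cyba over Rac2, from 1.26 with all 4 to between 0.65 and 1.87. Depth limits most Ncf4 (14.1 to 25.2 estimated fragments) and Cybb in control 1 (19.8).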
